A study of Glycine max with 20 samples.

Results

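The genes described here are 5 soybean genes for 1-aminocyclopropane-1-carboxylate (ACC) synthase: Glyma.05G211700, Glyma.08G018000, Glyma.01G196100, Glyma.05G108900 and Glyma.11G045600. They were taken by name from the 56044 genes (88647 transcript models) in the expression table, and all 5 were found, each with 1 model. Of all genes in the table, 18 have an Arabidopsis ACC synthase as their best hit, so 13 more genes of the family lie outside the list. By their names the 5 genes lie on chromosomes 5, 8, 1, 5 and 11 of the Wm82.a2 annotation.

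ACC synthase converts S-adenosylmethionine to ACC, which is usually the rate-limiting step of ethylene synthesis in plants, and ACC oxidase then turns ACC into ethylene. In Arabidopsis the enzymes of the ACS1, ACS2 and ACS6 class are phosphorylated and stabilised by the kinases MPK3 and MPK6, and the transcription factor WRKY33 binds the promoters of ACS2 and ACS6. Enzymes of the ACS4, ACS5, ACS8 and ACS9 class are instead held by ETO1 and its relatives EOL1 and EOL2 and sent for degradation. Ethylene acts in ripening, abscission, senescence and the control of cell expansion.

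The study compared seed coat tissue of a pair of near-isogenic lines of soybean cultivar Clark. UC413 (genotype ii R t mi G) carries the recessive minute hilum allele mi and came from 6 backcrosses to Clark 63. UC7 (Clark 63, genotype ii R T Mi g) is its recurrent parent. The lines share ii and R and differ at mi, at t and at G, and each genotype is represented by 1 line, so effects of the 3 loci and of any linked donor segment cannot be told apart.

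Of the 20 libraries, 14 came from the extended hilum (EH), the hilum with a ring of tissue round it, and 6 from whole seed coats (WS). Stages were set by seed fresh weight: EH10 and WS10 at 10 to 25 mg, EH25 and WS25 at 25 to 50 mg, EH50 and WS50 at 50 to 100 mg, and EH100 at 100 to 200 mg. EH10, EH25 and EH50 had 2 replicates in each line, and the other 4 stages had 1 library in each line. Libraries held 91768975 to 128803969 read alignments. Alignments to a ribosomal DNA region made up 0.386% to 1.03% of the UC413 EH10, EH25 and EH50 libraries and 3.80% to 44.4% of those of UC7. RPKM is a read count corrected for the length of the model and for all alignments of the library, so a large ribosomal share lowers every other RPKM of that library. Levels are therefore given as scaled RPKM, which is RPKM over the library's own median-of-ratios size factor. Size factors ran from 1.15 to 1.24 in UC413 and from 0.574 to 1.02 in UC7 at these 3 stages.

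The tissue label was checked against markers. Summed over 17 genes with Arabidopsis seed coat genes as best hits (among them BAN, TT12, TT10 and STK), scaled RPKM was 684.8 to 1017 in UC413 and 692.0 to 1145 in UC7. These sums do not show single markers. At EH50 limma called 2 of the 12 seed coat markers tested lower in UC413 and 1 higher, where 8.07% of models were called. The lower ones were the BAN-type Glyma.08G062000 (log2 difference -3.84, adjusted p = 8.69e-04) and the TT12-type Glyma.14G032400 (-2.31, adjusted p = 0.00779). The higher one was the BAN-type Glyma.19G254600 (1.31, adjusted p = 0.0186). None of 36 endosperm-type genes reached 1 scaled RPKM in any library. Of these, 33 have AGL62 as best hit, 7 of them at 0 in all 20 libraries, and 3 have ZOU. The check thus covers few kinds of endosperm gene, and absence of endosperm was not shown. Embryo genes were present too, at a summed 4.90 to 242 scaled RPKM in UC413 and 6.31 to 758 in UC7, and are given stage by stage beside the results below.

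Glyma.05G211700 and Glyma.08G018000 supplied almost all ACC synthase transcript in every library, 91.6% to 99.7% of the summed RPKM of the 18 genes. Glyma.05G211700 (model length 2131 bases, coding length 1455) has ACS1 as its best Arabidopsis hit. Glyma.08G018000 (2236 bases, coding length 1455) has ACS6. Both hits belong to the class that the MPK3 and MPK6 kinases act on in Arabidopsis, where ACS1 is inactive as a pair with itself. Glyma.01G196100 (2292 bases), Glyma.05G108900 (1884 bases) and Glyma.11G045600 (1619 bases) have ACS8 as best hit, in the class controlled by ETO1. All 5 models carry the aminotransferase class I and II domain. A read could be counted in up to 25 models, so similar copies may share reads, and the split between the genes within each class is uncertain. How many reads they shared was not tested.

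At EH10 Glyma.05G211700 was at 4.64 and 6.15 scaled RPKM in UC413, against 19.2 and 11.6 in UC7. At EH25 it was at 3.87 and 6.94 in UC413, against 16.5 and 10.7 in UC7. At EH50 it was at 8.23 and 10.6 in UC413, against 21.9 and 12.7 in UC7. At all 3 stages both UC413 libraries lay below both UC7 libraries. The spread between replicates was wide in UC7, where replicate 1 was the higher at each stage, while replicate 2 was the higher in UC413.

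Glyma.08G018000 ran alongside it. It was at 5.60 and 6.72 scaled RPKM at EH10 in UC413, against 19.3 and 11.96 in UC7, and at 5.77 and 7.39 at EH25 in UC413, against 19.3 and 11.6 in UC7. At EH50 it was at 10.6 and 12.8 in UC413, against 25.8 and 16.1 in UC7. Again the lines did not overlap in scaled RPKM at any of these stages, and the higher replicate in each line was the same as for Glyma.05G211700. With RPKM as deposited the lines overlapped at EH50 for both genes. There replicate 2 was at 12.2 in UC413 and 11.3 in UC7 for Glyma.05G211700, and at 14.8 and 14.4 for Glyma.08G018000. The values of this pair rest on 936 to 8027 alignments per library for Glyma.05G211700 and 1465 to 11454 for Glyma.08G018000, so counting error was small beside the differences between replicates.

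**Figure D1:**
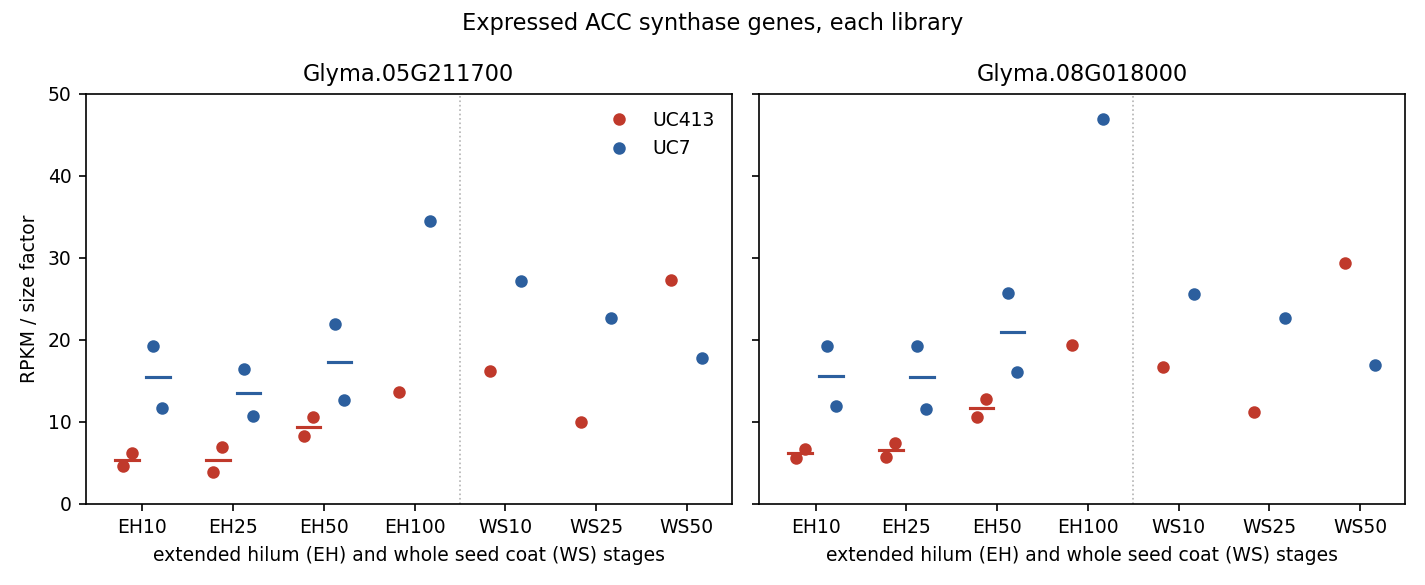
Scaled RPKM of Glyma.05G211700 and Glyma.08G018000 in each of the 20 libraries, by stage and region, with UC413 drawn left of UC7. Each point is 1 library and short bars mark means of 2 replicates. UC413 points lie below UC7 points at every stage except WS50, where Glyma.05G211700 was at 27.3 in UC413 and 17.8 in UC7.

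Averaged over the 3 replicated stages, both genes were lower in UC413. Glyma.05G211700 had a log2 difference of -1.19 (SE 0.21), which is 0.437 times the UC7 level (95% interval 0.316 to 0.605, limma, adjusted p = 0.00283). Glyma.08G018000 had a log2 difference of -1.08 (SE 0.18), or 0.474 times the UC7 level (95% interval 0.360 to 0.625, limma, adjusted p = 0.00213). The background of this comparison is high: 34.2% of the 57568 models tested passed the threshold, 17.2% higher and 17% lower in UC413. By size, 1.17% of models had a lower log2 difference than Glyma.05G211700 and 1.57% a lower one than Glyma.08G018000. In bulk tissue, fewer cells that express a gene and less RNA per cell cannot be told apart. An exact permutation test of line within stage gave p = 0.00926 for each gene (two-sided), the smallest that its 216 arrangements allow. The study describes its replicates as independent, and the p-values measure the spread between these libraries.

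Taken stage by stage, the differences were less secure. At EH10 the log2 difference was -1.44 (SE 0.36, limma, adjusted p = 0.0464) for Glyma.05G211700 and -1.27 (SE 0.31, adjusted p = 0.0417) for Glyma.08G018000, where 6.36% of models were called and 2.41% called lower. limma-voom on alignments called both as well, in a fit where 5.63% of models were called. Both calls were lost with RPKM as deposited, where the log2 differences were -0.66 and -0.49 (adjusted p = 0.0986 and 0.160). They were also lost, with the log2 differences still -1.44 and -1.27, with replicate number as a block (0.0741 and 0.0615), with library kit as a covariate (0.0596 and 0.0535), without a low-value filter (0.0693 and 0.0606) and with stranded libraries only (0.0694 and 0.0633). Neither passed without UC413 EH10 replicate 1 or 2, UC7 EH10 replicate 1, or UC413 EH50 replicate 1 or 2, where adjusted p ran from 0.0651 to 0.265 and from 0.0604 to 0.245. Glyma.05G211700 alone lost its call without UC7 EH10 replicate 2 (0.0510), and Glyma.08G018000 alone without UC413 EH25 replicate 1 or 2 (0.0525 each). At EH25 the log2 differences were -1.31 (SE 0.36, adjusted p = 0.0955) and -1.17 (SE 0.31, adjusted p = 0.0857), and 2.21% of models were called. Glyma.08G018000 alone was called there without UC7 EH25 replicate 2 (0.0296). At EH50 they were -0.82 (SE 0.36, adjusted p = 0.176) and -0.79 (SE 0.31, adjusted p = 0.135), and 8.07% of models were called. Of these 2 genes limma thus called 0 at EH25 and 0 at EH50, with 2 at an unadjusted p under 0.05 at each stage. limma-voom, which tested all 5 genes, also called 0 at each, with 4 at EH25 and 2 at EH50 under 0.05 unadjusted, where it called 1.91% and 7.41% of models. limma without a low-value filter, which tested all 5 as well, called 1 at EH25 (Glyma.05G108900) and 0 at EH50, with 4 and 1 under 0.05 unadjusted, where it called 4.79% of models at EH50. The change of the line difference between stages was not called either. Between EH10 and EH50 it moved by 0.62 (SE 0.51) for Glyma.05G211700 and 0.49 (SE 0.44) for Glyma.08G018000 on the log2 scale, and for the 3 pairs of stages limma called 0 of the 2 genes and limma-voom 0 of the 5, each with 0 under 0.05 unadjusted, where limma called 0% of models. Without a low-value filter 0 of the 5 were called, but Glyma.05G108900 was under 0.05 unadjusted for EH50 against EH10 and for EH50 against EH25. Its adjusted p for EH50 against EH10 was 0.466 (limma), where 0.00119% of models were called.

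**Figure D2:**
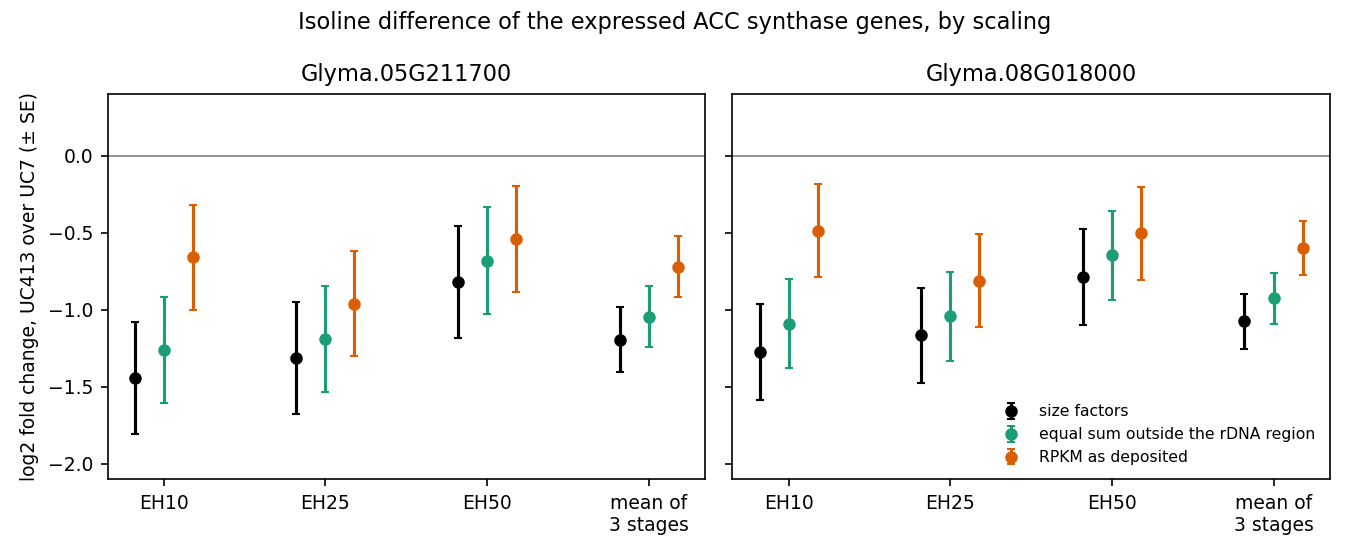
Log2 difference of UC413 over UC7 for Glyma.05G211700 and Glyma.08G018000 at EH10, EH25, EH50 and over the 3 stages, from limma under 3 scalings, with bars of 1 SE. All estimates are below 0, and those over the 3 stages are -1.19 and -1.08 with size factors and -0.72 and -0.60 with RPKM as deposited.

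Leaving EH10 out kept the direction, which the separate EH25 and EH50 differences above had already fixed. Over EH25 and EH50 alone, a comparison added after the data were seen, the log2 difference was -1.07 (adjusted p = 0.0197) for Glyma.05G211700 and -0.98 (adjusted p = 0.0146) for Glyma.08G018000, with 19.9% of models called. Both calls were lost with stranded libraries only (adjusted p = 0.182 and 0.149) and without UC413 EH50 replicate 1 or UC7 EH50 replicate 1, and that of Glyma.05G211700 also without UC413 EH25 replicate 1 (adjusted p up to 0.0716 and 0.0556 without 1 library). The comparison leaves out the 2 UC7 libraries with the largest ribosomal DNA shares, 44.4% and 24.6%. The UC7 libraries that it keeps still held 3.80% to 20.6%, so it does not remove the difference in ribosomal share between the lines.

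The summed embryo markers were also lower in UC413 at these stages. Summed over 21 genes with Arabidopsis seed storage, oleosin or embryo regulator genes as best hits, scaled RPKM was 4.90 to 5.22 in UC413 and 6.31 to 8.12 in UC7 at EH10, 9.45 to 19.2 in UC413 and 25.1 to 58.3 in UC7 at EH25, and 44.4 to 55.9 in UC413 and 61.3 to 90.3 in UC7 at EH50. Of its regulator genes, the LEC1-type gene was at 0 in all 20 libraries, while the ABI3-type genes summed to 1.23 to 11.96 and the FUS3-type genes to 0.469 to 6.28 scaled RPKM, and 1 to 3 of the 21 genes were at 0 in each group. Single embryo genes did not all follow the sums. For 14 of them limma gave median log2 differences of -0.15, -1.35 and -0.40, in stage order. It called 0 of these 14 genes at any single stage. Over the 3 stages it called 3 lower and 0 higher, where 17% of models were called lower. Glyma.10G028300 had a log2 difference of 0.26 at EH10. The part of embryo tissue in the ACC synthase differences was not tested.

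In the unreplicated stages the lines are compared by value alone. At EH100 Glyma.05G211700 was at 13.6 scaled RPKM in UC413 and 34.5 in UC7, a ratio of 0.394, and Glyma.08G018000 at 19.4 in UC413 and 47.0 in UC7, a ratio of 0.412. At WS10 the ratios were 0.598 and 0.654, and at WS25 they were 0.441 and 0.492. WS50 went the other way: Glyma.05G211700 was at 27.3 in UC413 and 17.8 in UC7 (ratio 1.53), and Glyma.08G018000 at 29.4 in UC413 and 17.0 in UC7 (ratio 1.73). Both genes were thus lower in the UC413 library in 3 of these 4 stages and higher in the last whole seed coat stage. Both libraries of WS50 and of EH100 were made with the non-stranded kit. The summed embryo markers were at 242 scaled RPKM in UC413 and 758 in UC7 at EH100, and at 65.5 in UC413 and 33.3 in UC7 at WS50. At WS10 they were at 24.8 in UC413 and 12.4 in UC7, opposite to the ACC synthase pair.

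Between stages of the extended hilum, no change of the expressed pair passed the test. In UC413 the mean of Glyma.05G211700 was 5.39 ± 1.07 scaled RPKM at EH10, 5.40 ± 2.18 at EH25 and 9.40 ± 1.65 at EH50 (SD, n = 2 each), and that of Glyma.08G018000 was 6.16 ± 0.791, 6.58 ± 1.15 and 11.7 ± 1.53. In UC7 the same series was 15.4 ± 5.37, 13.6 ± 4.12 and 17.3 ± 6.53 for Glyma.05G211700 and 15.6 ± 5.18, 15.4 ± 5.44 and 20.9 ± 6.86 for Glyma.08G018000. The gap between the UC7 replicates at each stage was larger than any step between the stage means.

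EH50 against EH25 in UC413 gave a log2 difference of 0.82 for both genes (limma, adjusted p = 0.236 and 0.165), in a comparison where 5.48% of models were called. EH50 against EH10 gave 0.78 (adjusted p = 0.200) and 0.90 (adjusted p = 0.0822) in UC413, where 15% of models were called, and 0.15 and 0.42 in UC7, where 11.4% were. limma called 0 of these 2 genes between stages in either line. At an unadjusted p under 0.05 it found 2 for EH50 against EH25 in UC413 and 1 for EH50 against EH10 in UC413, where limma-voom called 0 and found 3 and 2, with 5.42% and 15.8% of models called. The other contrasts between stages had 0 under 0.05 unadjusted with both tools, where limma called 0% of models (EH25 against EH10 in UC413), 0.155% (the same in UC7), 1.18% (EH50 against EH25 in UC7) and 11.4% (EH50 against EH10 in UC7). EH100, with 1 library in each line, was at 1.45 times the EH50 mean in UC413 and 1.99 times in UC7 for Glyma.05G211700, and at 1.65 and 2.24 times for Glyma.08G018000. The EH100 libraries were non-stranded, while the EH50 means join a non-stranded and a stranded library.

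Whole seed coats of UC413 held more of both transcripts than the extended hilum of the same weight. The ratio of extended hilum to whole seed coat in UC413 was 0.332, 0.541 and 0.345 for Glyma.05G211700 and 0.369, 0.589 and 0.399 for Glyma.08G018000 at 10 to 25, 25 to 50 and 50 to 100 mg. In UC7 it was 0.568, 0.600 and 0.972 for Glyma.05G211700 and 0.611, 0.680 and 1.23 for Glyma.08G018000. All 6 ratios were thus below 1 in UC413, and the UC7 ratios at 50 to 100 mg lay on both sides of 1. At that weight the WS50 libraries and EH50 replicate 1 were non-stranded and EH50 replicate 2 was stranded. In UC7 the EH50 replicates were 21.9 and 12.7 for Glyma.05G211700, against 17.8 at WS50. For Glyma.08G018000 they were 25.8 and 16.1, against 17.0 at WS50. With RPKM as deposited the UC7 ratios at 10 to 25 mg were 0.356 and 0.384. With 1 whole seed coat library per stage these ratios were not tested. Over all groups both genes were highest in UC7 at EH100, followed by UC413 at WS50, and lowest in UC413 at EH10 and EH25, whose replicates overlap each other.

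Glyma.05G211700 and Glyma.08G018000 were each other's closest match in pattern. Over the 20 libraries their log2 scaled values had a Pearson r of 0.977, the highest of each with any of 33072 genes at 1 RPKM or more in at least 2 libraries. After it came Glyma.07G174100 (r = 0.947), Glyma.03G045400 (0.931), Glyma.06G068000 (0.930) and the TIC55-like Glyma.06G060200 (0.926) for Glyma.05G211700. For Glyma.08G018000 they were Glyma.09G094900 (0.944), Glyma.09G096500 (0.941), Glyma.06G060200 (0.938) and Glyma.04G136600 (0.932), whose best hit is the calmodulin-like gene CML37. These correlations describe libraries that share lines, depth and ribosomal DNA share, and reads that align to both genes would raise the first of them.

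The balance between the pair ran lower in whole seed coats, with overlap. The RPKM of Glyma.08G018000 was 1.00 to 1.49 times that of Glyma.05G211700 in the 12 EH10, EH25 and EH50 libraries (median 1.17) and 1.42 times in UC413 and 1.36 times in UC7 at EH100. In the 6 whole seed coat libraries it was 0.940 to 1.12 times, higher in UC413 than in UC7 at each of the 3 stages. The difference between regions was not tested. Between the lines the log2 ratio differed by 0.13 over the 3 replicated stages (two-sided exact permutation test, p = 0.157, added after the data were seen).

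**Figure D3:**
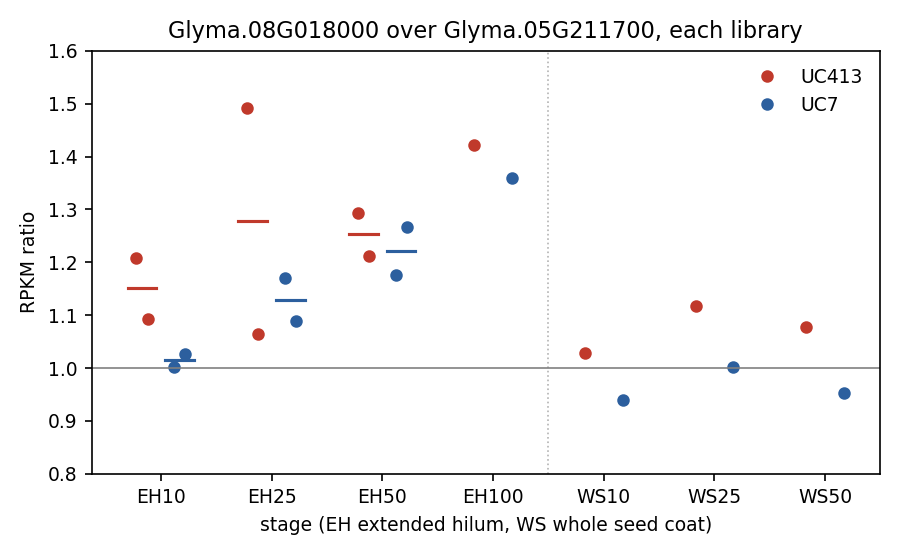
RPKM of Glyma.08G018000 divided by RPKM of Glyma.05G211700 in each library, by stage and region, with UC413 drawn left of UC7. Whole seed coat ratios sit between 0.940 and 1.12, and the EH100 ratios are 1.42 in UC413 and 1.36 in UC7.

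The 3 ACS8-type genes were close to the limit of detection in all 20 libraries and did not reach the level needed for the test of all models, so they are given as alignments. A floor of 3 alignments corresponds to 0.0102 to 0.0202 RPKM for these models. Glyma.01G196100 had 34 and 9 alignments at EH10 in UC413 and 0 and 0 in UC7, 5 and 32 at EH25 in UC413 and 0 and 0 in UC7, and 8 and 8 at EH50 in UC413 and 0 and 2 in UC7. It was thus seen in 6 of 6 UC413 libraries and 1 of 6 UC7 libraries. Summed over these stages it had 96 alignments in UC413 and 2 in UC7. Relative to alignments outside ribosomal DNA this is a ratio of 38.5, with a counting interval of 10.4 to 323. At EH10 and EH25, where UC7 had none, the lower 95% counting limit of the ratio was 8.46 and 8.12.

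Glyma.05G108900 had the most alignments of the 3. It had 62 and 37 at EH10 in UC413 and 0 and 1 in UC7, 25 and 50 at EH25 in UC413 and 5 and 0 in UC7, and 14 and 9 at EH50 in UC413 and 0 and 5 in UC7. The lines did not overlap at any of the 3 stages. The sums were 197 in UC413 and 11 in UC7, a ratio of 14.4 (counting interval 7.86 to 29.3). By stage the ratio was 75.0 (13.2 to 2994) at EH10, 12.8 (5.23 to 40.4) at EH25 and 3.67 (1.37 to 12.4) at EH50.

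Glyma.11G045600 did not separate the lines beyond EH10. It had 15 and 2 alignments at EH10 in UC413 and 1 and 1 in UC7, 2 and 11 at EH25 in UC413 and 2 and 0 in UC7, and 0 and 3 at EH50 in UC413 and 0 and 5 in UC7. Sums were 33 in UC413 and 9 in UC7, a ratio of 2.94 (1.38 to 6.99), but the lines shared a count of 2 at EH25 and overlapped at EH50. These intervals cover counting error only. All 3 genes had their higher UC413 count in replicate 1 at EH10 and in replicate 2 at EH25, so replicate spread exceeded counting error. The ACC oxidase gene Glyma.09G008400 had the same order of UC413 replicates at these stages, 149 and 119 scaled RPKM at EH10 and 56.4 and 172.6 at EH25. At EH50 it was at 116 and 148 in UC413, an order shared by Glyma.11G045600 (0 and 3 alignments). Glyma.05G108900 (14 and 9) and Glyma.01G196100 (8 and 8) did not share it.

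**Figure D4:**
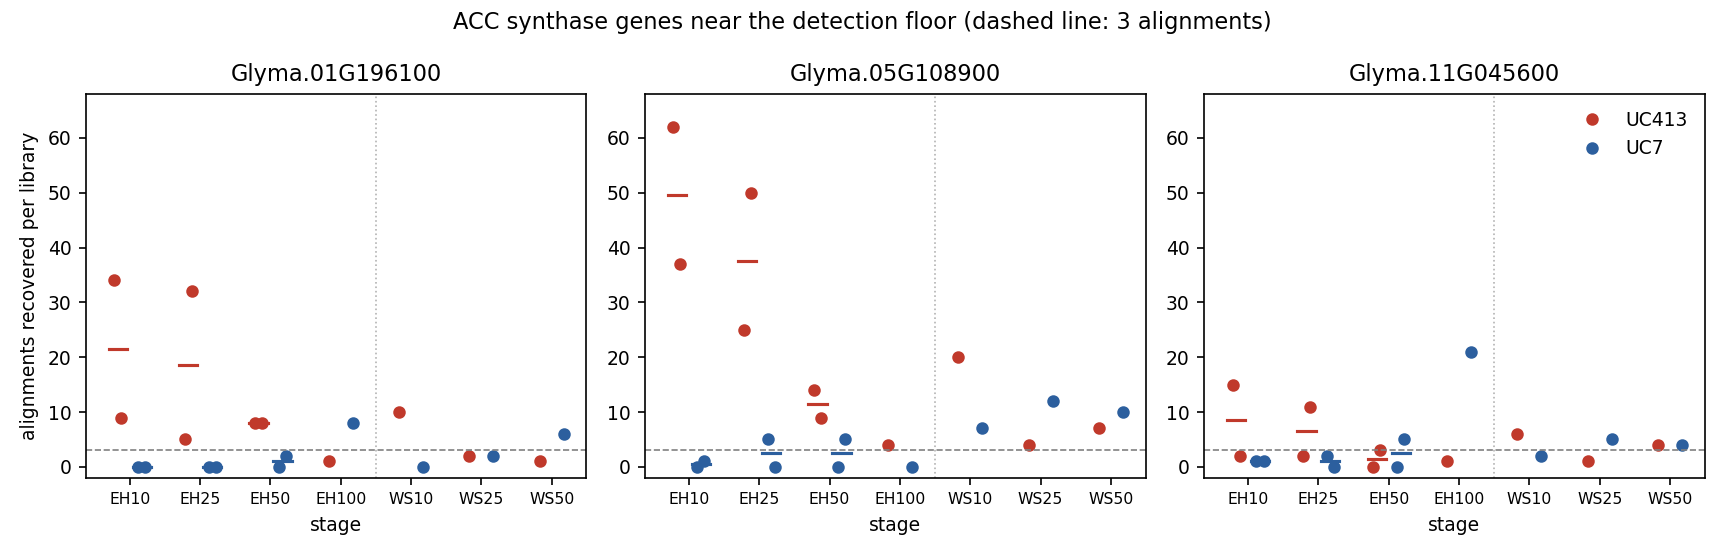
Alignments of Glyma.01G196100, Glyma.05G108900 and Glyma.11G045600 in each of the 20 libraries, by stage and region, with UC413 drawn left of UC7, short bars at means of 2 replicates and the floor of 3 alignments as a dashed line. UC413 points of Glyma.01G196100 and Glyma.05G108900 lie above UC7 points at EH10, EH25 and EH50, with 62 alignments as the highest.

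Tested one gene at a time by the exact permutation test within stage, on log2 scaled values, Glyma.01G196100 and Glyma.05G108900 were higher in UC413, each with p = 0.00926 (two-sided, 5 genes tested, the smallest p the design gives). Their mean log2 differences of 0.26 and 0.54 are damped by the pseudocount of 0.25, which is above all their levels. The highest were 0.110 scaled RPKM for Glyma.01G196100 and 0.244 for Glyma.05G108900, both at EH10 in UC413. The exact permutation test of Glyma.11G045600 gave 0.08 (p = 0.269). In the fit across all models without a low-value filter, Glyma.05G108900 was called higher over the 3 stages (limma, adjusted p = 0.00124) and at EH10 (0.00729) and EH25 (0.0395), and Glyma.01G196100 over the 3 stages (0.0393). In that fit 26.7% of models were called over the 3 stages, 13.8% of models being higher, and 3.09% were called higher at EH10 and 1.2% at EH25. Within UC413 the same fit called Glyma.05G108900 lower at EH50 than at EH10 (log2 difference -0.62, limma, adjusted p = 0.0121), where 6.24% of models were called lower. limma-voom also called Glyma.05G108900 and Glyma.01G196100 over the 3 stages (adjusted p = 0.00209 and 0.00385), and Glyma.05G108900 at EH10 (0.0327), but not Glyma.11G045600 (0.473), with 31.4% of models called. The limma-voom filter asked for at least 10 alignments in at least 2 libraries. These 3 genes met it only through UC413, as no UC7 library in the fit held more than 5 of their alignments. The limma-voom calls are therefore no separate support.

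Outside these stages the 3 genes showed no common order between the lines. At EH100 Glyma.01G196100 had 1 alignment in UC413 and 8 in UC7, Glyma.05G108900 4 in UC413 and 0 in UC7, and Glyma.11G045600 1 in UC413 and 21 in UC7. At WS10 they had 10, 20 and 6 alignments in UC413, against 0, 7 and 2 in UC7. At WS25 they had 2, 4 and 1 in UC413, against 2, 12 and 5 in UC7. At WS50 they had 1, 7 and 4 in UC413, against 6, 10 and 4 in UC7. All 3 were thus higher in UC413 at WS10, as at EH10, and none of the 3 had more alignments in UC413 at WS25 or WS50.

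The other 13 ACC synthase genes stayed below 1 RPKM in all 20 libraries. The highest value was 0.645 RPKM, for Glyma.18G238100 at EH100 in UC7, and 8 of the 13 passed 3 alignments in at least 1 library. Named after their values were seen, the ACS1-type Glyma.16G032200 had 124 alignments over the 6 EH10, EH25 and EH50 libraries of UC413 and 1 over those of UC7, a ratio of 99.5 (counting interval 17.5 to 3961), and the ACS8-type Glyma.17G158100 had 63 in UC413 and 18 in UC7, a ratio of 2.81 (1.64 to 5.04). In these sums the ACS1-type Glyma.09G255000 went the other way, with 19 in UC413 and 41 in UC7, a ratio of 0.372 (0.204 to 0.655). So did Glyma.18G238100, with 108 in UC413 and 115 in UC7, a ratio of 0.754 (0.574 to 0.989). Neither kept that order at EH10. There Glyma.09G255000 had 8 alignments in UC413 and 1 in UC7, and Glyma.18G238100 had 49 in UC413 and 15 in UC7. At EH25 they had 5 and 19 in UC413, against 18 and 58 in UC7. The fit across models with at least 1 RPKM in 2 libraries left these genes out. limma-voom called Glyma.16G032200 (adjusted p = 0.00930) and Glyma.17G158100 (0.0484) higher over the 3 stages, and neither Glyma.09G255000 (0.326) nor Glyma.18G238100 (0.485). Glyma.16G032200 met the limma-voom filter only through UC413, with at most 1 alignment in a UC7 library, so its call is no separate support. limma without a low-value filter called none of these 4 genes (adjusted p = 0.0548, 0.199, 0.212 and 0.529, with Glyma.16G032200 alone under 0.05 unadjusted). Glyma.07G065700 (17 alignments in UC413 and 0 in UC7, lower limit 3.31) and Glyma.06G049900 (0 and 5, upper limit 0.876), also named after their values were seen, had intervals that left out 1. That limma fit called neither (adjusted p = 0.0959 and 0.475).

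The steps on either side of ACC synthase are given from lists of genes chosen by best Arabidopsis hit, counted over the 3 replicated stages, where the median log2 difference of all models was -0.02. Other scalings moved that median to 0.42 (RPKM as deposited) and 0.12 (equal sums outside ribosomal DNA). Upstream, 8 of 12 S-adenosylmethionine synthetase genes were tested. Of these 4 were lower in UC413, none was higher, and their median log2 difference was -0.44 (0.04 with RPKM as deposited, where 1 was lower). Glyma.03G184000, a MAT3-type gene, had -1.06 (adjusted p = 1.80e-04) and Glyma.07G233800, a SAM2-type gene, -0.59 (adjusted p = 0.00695). The others, named after their values were seen, were Glyma.03G223000 (-0.58, adjusted p = 0.0187) and Glyma.19G220200 (-0.55, adjusted p = 0.0353). The 3 most abundant genes of the list did not pass, Glyma.17G039100 with -0.33, Glyma.15G190500 with -0.24 and Glyma.17G039000 with -0.33. Of the genes that return sulphur to methionine, 13 of 18 were tested, 1 was lower and none higher, with a median of -0.05 (0.43 with RPKM as deposited, where 10 were higher). The lower one, named after its value was seen, was the ARD4-type Glyma.20G150100 (-0.44, adjusted p = 0.0308). The 3 most abundant, Glyma.10G244100 (-0.16), Glyma.20G150200 (-0.11) and Glyma.13G276000 (0.10), did not pass.

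Downstream, 6 of 18 ACC oxidase genes were tested, 2 of them higher and 2 lower in UC413 (median 0.18). The ACO4-type Glyma.09G008400 was at 149 and 119 scaled RPKM at EH10 in UC413, against 0.0275 and 0.0416 in UC7, with a log2 difference over the 3 stages of 8.59 (SE 0.23, adjusted p = 1.85e-07), a value that depends on the pseudocount because the UC7 level is below it. Glyma.15G112700, of the same type, had 7.26 (SE 0.26, adjusted p = 8.75e-07). Glyma.07G264200 (-1.10, adjusted p = 0.00159) and Glyma.17G009800 (-1.11, adjusted p = 0.00142) were lower. At EH10, EH25 and EH50 the UC413 libraries thus held far more of 2 ACC oxidase transcripts while holding less of the expressed ACC synthase pair. At WS50, with 1 library in each line, UC413 was higher in both. Glyma.09G008400 was at 53.3 scaled RPKM in UC413 and 0.00494 in UC7 there. Glyma.05G211700 was at 27.3 in UC413 and 17.8 in UC7, and Glyma.08G018000 at 29.4 and 17.0.

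Genes whose Arabidopsis counterparts act on ACC synthase or on ACC were few. For the kinases, 4 MPK3- and MPK6-type genes were tested and 2 were lower, Glyma.U021800 (-1.24, adjusted p = 0.0169) and Glyma.12G073000 (-1.28, adjusted p = 0.0180), both MPK3-type, while the MPK6-type Glyma.07G206200 had -0.09. With RPKM as deposited 2 were lower and 2 higher. The UC7 replicates at EH25 lay far apart, at 16.2 and 56.5 scaled RPKM for Glyma.U021800 and 13.3 and 51.8 for Glyma.12G073000. With size factors limma called neither gene at any single stage. Both WRKY33-type genes tested were lower, Glyma.14G200200 with -1.06 (adjusted p = 0.0260) and Glyma.02G232600 with -1.30 (adjusted p = 0.0370), and neither passed with RPKM as deposited, where their median was -0.71. Their EH25 values in UC7 differed widely between replicates, 7.26 and 31.1 scaled RPKM for Glyma.14G200200. Of 10 ETO1- and EOL-type genes 3 were higher and none lower, with a median of 0.16 (0.58 with RPKM as deposited, where 10 were higher). The higher ones were the ETO1-type Glyma.11G167200 with 0.25 (adjusted p = 0.0377) and, named after their values were seen, Glyma.02G229400 with 0.44 (0.0253) and Glyma.14G197100 with 0.35 (0.0341). The EOL1-type Glyma.19G159400 and Glyma.03G157200 had 0.17 and 0.15 and did not pass. The ubiquitin ligase XBAT32 had 2 genes tested and 1 lower (Glyma.17G068400, -0.20, adjusted p = 0.0474), with a median of -0.23 that turned to 0.19 with RPKM as deposited, where none passed. LHT1, which moves ACC in Arabidopsis, had 3 genes of its type tested and 2 lower, Glyma.16G062500 (-0.41, adjusted p = 0.00584) and Glyma.19G084200 (-0.37, adjusted p = 0.0199), while Glyma.16G062600 had 0.15 and did not pass. With RPKM as deposited the LHT median was 0.07 and none passed. None of 3 ACS10- or ACS12-type genes, aminotransferases that lack ACC synthase activity in Arabidopsis, passed (Glyma.09G152700 with -0.20, Glyma.16G203600 with -0.15 and Glyma.11G028200 with 0.05, median -0.15, and 0.27 with RPKM as deposited). Counts with size factors stand against 34.2% of models called, and those with RPKM as deposited against 62.5%, with 60.1% of models higher and 2.37% lower.

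**Figure D5:**
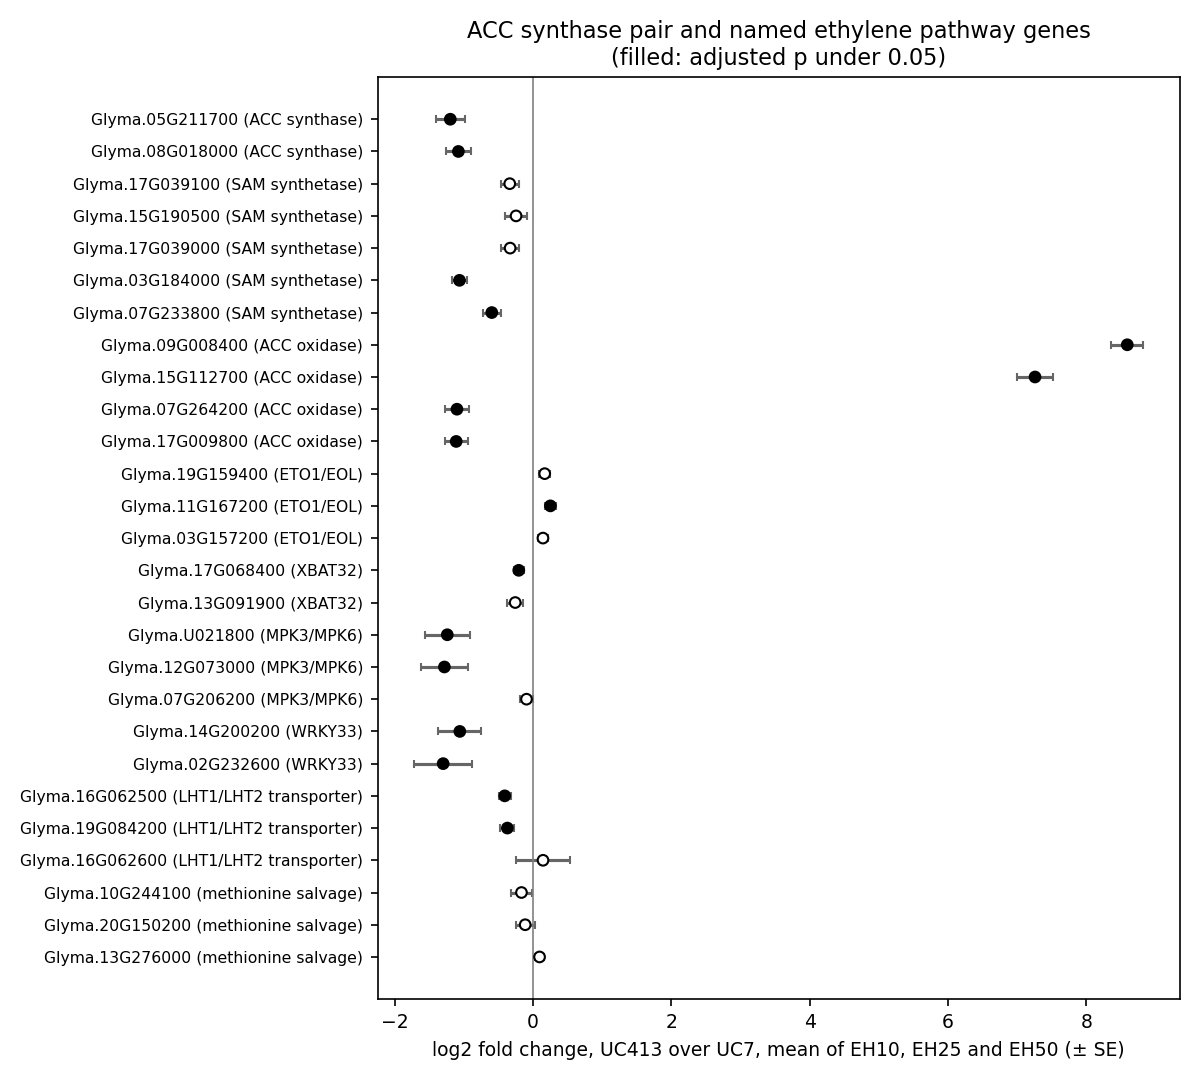
Log2 difference of UC413 over UC7 across EH10, EH25 and EH50 for the expressed ACC synthase pair and genes of the lists around them, from limma, 1 point per gene with bars of 1 SE, filled where the adjusted p is under 0.05. The ACC oxidase genes spread widest, up to 8.59, and the expressed ACC synthase pair lies at -1.19 and -1.08.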

How the data were processed

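RNA-seq libraries were made with TruSeq kits, stranded except for EH50 replicate 1, EH100 and WS50 of both lines. The authors aligned 100-nucleotide reads to the Glyma transcript models of Wm82.a2 with Bowtie version 1, allowing 3 mismatches and 25 alignments per read, and deposited RPKM per model and library. The members and gene lists were chosen with earlier results of these data known.

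RPKM times model length came out as whole alignments for 100% of values within 0.01. RPKM was divided by median-of-ratios size factors. Models with at least 1 RPKM in at least 2 of the 12 EH10, EH25 and EH50 libraries were tested by limma 3.58.1 in R 4.3.3 (trend) on log2(scaled RPKM + 0.25) in 6 line-by-stage groups. Fold changes are on that scale, which understates low genes. P-values were adjusted by Benjamini-Hochberg over all 57568 models, with a threshold of 0.05. Count models for RPKM tables were not used, and limma-voom ran on recovered alignments (at least 10 in at least 2 libraries). Same-numbered replicates deviated together (correlation 0.193, 0.226 and 0.468 at EH10, EH25 and EH50) and the block was run as an alternative. At EH50 the number coincides with the kit. Single genes were tested by exact permutation within stage in scipy 1.17.1, where 2 against 2 in 1 stage cannot go below p = 0.333. Fitting was tested on simulated data. Genes named were the 5 members, the 5 nearest patterns of each expressed member, and in each list the 3 most abundant and those called at any single stage. Others are said to be named after their values were seen. Intervals and floors cover counting error only. The reference table of another assembly matched 0 of the 5 genes.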

Additional observations from a re-analysis of the deposited data

Results flagged for a closer look

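Glyma.05G211700 and Glyma.08G018000 were at 1.53 and 1.73 times the UC7 level in UC413 at WS50, where every UC413 library at EH10 lay below the UC7 libraries. Glyma.01G196100 was at 0.0983 times and Glyma.11G045600 at 0.0374 times the UC7 level in UC413 at EH100 (scaled RPKM), where both UC413 libraries at EH10 lay above those of UC7. These values rest on 1 alignment each in UC413, against 8 and 21 in UC7, and the counting intervals of the alignment ratios were 0.00246 to 0.813 and 0.00100 to 0.258. WS50 and EH100 had 1 library in each line, so these 4 differences between stages were not tested. No group had 4 or more libraries, and outlying libraries within a group could not be looked for.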

How the results depend on the processing

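Over the 3 stages, the lower level of Glyma.05G211700 and Glyma.08G018000 in UC413 passed the threshold under all 10 other settings tried and without each of the 12 libraries in turn (log2 difference -1.23 to -0.72 and -1.10 to -0.60 over those settings, adjusted p up to 0.0268 and 0.0220). Of the 5 genes, 2 were called there, against 4 without a low-value filter and 4 by limma-voom, whose filter the ACS8-type genes met only through UC413. At EH10 the number called was 2, against 1 without the filter, 0 with RPKM as deposited, 0 with the replicate block, 0 with the kit as a covariate, 0 with stranded libraries only, and 0 to 2 without 1 library. At EH25 it was 0, against 1 without the filter and 0 to 1 without 1 library (Glyma.08G018000 was called without UC7 EH25 replicate 2). EH50 against EH10 had 0 called, against 1 without the filter (Glyma.05G108900, lower at EH50 in UC413) and 0 to 1 without 1 library (Glyma.08G018000, higher at EH50 in UC413, without UC7 EH25 replicate 1 or 2). The exact test of Glyma.01G196100 gave a log2 difference of 0.19 to 0.32 without 1 library, and its p was 0.0556 without UC7 EH25 replicate 1 or 2. With the replicate block the calls over the 3 stages held (adjusted p = 0.0107 and 0.00769), and no call of these 2 genes other than those at EH10 changed. The 3 ACS8-type genes were not fitted with the block. No called difference of the 5 genes reversed, while the medians of 5 pathway lists changed sign with RPKM as deposited. The causes were not tested. With 2 libraries per group and 1 in the other stages, small differences could not be detected, and the 3 ACS8-type genes are limited by counts of 0 to 62 alignments.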
